A study of Homo sapiens with 12 samples.

Results

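The 49 genes described here encode the factors that start, extend and end translation on cytosolic ribosomes, with the proteins that regulate them directly. They were chosen by name from a fixed list of symbols, and all 49 were found among the 38716 gene symbols of the deposited tables and among the 16451 symbols that carried at least 1 read in a coding sequence. The list held 7 factors of the ternary complex and of start codon selection, 5 subunits of the exchange factor EIF2B, 13 subunits of EIF3, 12 proteins of the cap and poly(A) tail complex, EIF5A and EIF6, 7 genes of elongation, and 3 of termination and ribosome recycling. Of the 49, 19 were grouped by name as 5′ TOP members (EEF1A1, EEF1B2, EEF1G, EEF2, the 13 EIF3 subunits, PABPC1 and TPT1) and the other 30 were compared with them.

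Initiation begins when EIF2, carrying GTP and the initiator tRNA, joins the small ribosomal subunit with EIF1, EIF1A, EIF3 and EIF5, and the loaded subunit is brought to the mRNA cap by EIF4E, EIF4G and EIF4A. EIF2B recharges EIF2 with GTP, EIF4E-binding proteins compete with EIF4G for EIF4E, EEF1A delivers charged tRNAs to the ribosome, and EEF2 moves the ribosome by a codon. Many mRNAs of this machinery, like those of ribosomal proteins, begin with a C and a run of pyrimidines, the terminal oligopyrimidine (TOP) motif, through which their translation follows the kinase mTOR and the protein LARP1.

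The cells were IMR90, an established line of human fetal lung fibroblasts, either proliferating (Pro) or passaged to replicative exhaustion (Sen), with no transgene and no drug given by the labels as a treatment. Each state had 3 independently grown lysates prepared with cycloheximide, and each lysate gave 1 RNA-seq library and 1 Ribo-seq library of RNase-protected footprints, 12 libraries in all. More than 1 isolate of the line was used and the labels do not assign isolates to samples, so isolate and state cannot be told apart. The 9 fibroblast markers examined had group means of at least 142 CPM in mRNA, COL1A1 being highest at 14209.8 CPM in Pro and 13273 CPM in Sen, whereas EPCAM, CDH1, KRT5, PECAM1, VWF, CDH5 and PTPRC lay near or under 1 CPM in every RNA-seq library. CD68, also listed as a leukocyte marker, was at 21.0, 20.8 and 18.9 CPM of mRNA in Pro and 33.2, 34.1 and 31.1 CPM in Sen, higher without overlap, and its part in the results was not tested. CDKN1A mRNA was higher in Sen by 1.60 on the log2 scale and LMNB1 lower, at −2.84.

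The mRNA level of a gene is its reads in the 5′ UTR, coding sequence and 3′ UTR of an RNA-seq library, and its ribosome-protected fragments (RPF) are its coding reads in a Ribo-seq library, both in CPM after TMM scaling of the library sizes. Translational efficiency (TE) of a lysate is the log2 ratio of RPF to mRNA. RNA-seq libraries held between 7902427 and 14144455 such reads. Ribo-seq depth was far less even, with 54421 coding reads in Pro 1 and 54708 in Sen 2 against 583798 to 1718521 in the other 4 libraries. A level of 3 counts therefore stood at 50.2 CPM in Pro 1 and 51.3 CPM in Sen 2, and at 5.67 CPM or less elsewhere. Coding sequence took 34.4% of the assigned Ribo-seq reads in Pro 1 and 15.0% in Sen 2, against 54.7% to 88.8% in the others. Among those others the share was lower in Sen (77.8% in Sen 1, 54.7% in Sen 3) than in Pro (84.4% in Pro 2, 88.8% in Pro 3). The part of this difference in the footprint results was not tested. RPF values of Pro 1 and Sen 2 given in the following are correspondingly coarse.

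The annotated transcription start shows which members carry a TOP-like run. RefSeq starts (GRCh38.p14) were found for 39 of the 49 genes. EIF3L, PABPC4, EIF3A, EIF4EBP1, EIF3H, EEF1D, EIF3G, PABPC1, EIF2S2 and EIF3E had none. A run was counted when any annotated start of a gene lay on a C followed by at least 4 C or T on the transcribed strand, which was the case for 1404 of 27305 genes of the table (5.14%). Of the 39 members, 11 (28.2%) had it. Among 5′ TOP members it was present in 8 of 13 (EIF3D, EIF3F, EIF3K, EIF3M, EEF1A1, EEF1B2, EEF2 and TPT1), and among the others in 3 of 26 (EIF2S3, EIF4A2 and EIF4B). Ribosomal protein genes had it in 47 of 63. The windows shown are those of the 5 elongation genes of the TOP class, of 2 EIF3 subunits with long runs, of EIF4B, which has a run but is outside the class, and of EIF5, the member with the lowest TE change, each covering 10 bases before and 20 bases from the start, with the pyrimidine run in capitals.
EEF2, chr19:3985444-3985473, minus strand: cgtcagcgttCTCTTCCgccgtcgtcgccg
EEF1A1, chr6:73521013-73521042, minus strand: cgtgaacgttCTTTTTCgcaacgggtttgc
TPT1, chr13:45341164-45341193, minus strand: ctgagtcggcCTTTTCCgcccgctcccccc
EEF1B2, chr2:206159885-206159914, plus strand: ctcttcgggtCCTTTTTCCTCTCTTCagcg
EIF3D, chr22:36529147-36529176, minus strand: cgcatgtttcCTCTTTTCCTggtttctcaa
EIF3F, chr11:7987327-7987356, plus strand: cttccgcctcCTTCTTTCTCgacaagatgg
EIF4B, chr12:53006446-53006475, plus strand: tcatccgggtCTTTTgcgttctctttccct
EEF1G, chr11:62573872-62573901, minus strand: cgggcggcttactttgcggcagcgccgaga
EIF5, chr14:103334227-103334256, plus strand: ggcgttgttcagtcagagcgagaacattcc
The first 7 genes had the run and the last, EIF5, had none at either of its listed starts. EEF1G, a TOP member by the list, started on an A in this annotation. These matches describe letters at annotated starts and do not show where transcripts of IMR90 cells begin.

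Across the 49 members, mRNA levels were mostly lower in Sen, and footprints were mostly lower as well. The elongation factors EEF1A1, EEF1D, EEF1G and EEF2 were among the genes with lower mRNA whose footprints did not fall past the threshold. EEF1A1 footprints passed as lower under 5 of 13 alternative settings. Of the 49, 38 mRNAs passed the threshold (edgeR quasi-likelihood test, Benjamini-Hochberg adjusted p under 0.15), 34 lower and 4 higher, where 73.6% of all 12786 genes tested passed, 37% lower and 36.6% higher. The median log2 change of the members was −0.25, beside −0.01 over all genes tested. In the RPF layer 32 passed, 28 lower and 4 higher, beside a background of 54.4% (26.7% lower and 27.7% higher of 7562 genes), and the median was −0.37 beside 0.01. For TE 10 passed, 6 higher and 4 lower, beside 9.38% (4.97% higher and 4.42% lower of 7512 genes), and the medians were 0.02 and −0.01. Groups of 3 did not overlap for 34 members in mRNA, 14 in RPF and 11 in TE, where all genes gave 67.8%, 32.7% and 16.3%. Members are deeply covered genes, and when only the 828 genes with no library under 10 counts were kept, 27.7% of them passed in TE, and 8 of the 24 members they included.

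Both footprint counts rested on the deeper Ribo-seq libraries. The RPF count was 13 without Sen 1, 15 without Pro 3 and 19 without Pro 2, and the TE count was 1 without Pro 2 or without Sen 3 and 5 without Pro 3 or without Sen 1. The share of all genes fell as well, from 54.4% in RPF to 33.1% without Sen 1, 35.6% without Pro 3 and 41.8% without Pro 2. In TE it fell from 9.38% to 1.57% without Pro 2, 1.77% without Sen 3, 2.16% without Pro 3 and 1.97% without Sen 1. With DESeq2, 15.3% of all genes passed in RPF and 0.36% in TE. Counts by role under these settings, given in the following, stand beside the same shares. Leaving out the shallow pair Pro 1 and Sen 2 together gave 37 in mRNA, 34 in RPF and 15 in TE, beside 71.4%, 53.7% and 13.1% of all genes. Scaling by library totals in place of TMM factors lowered the median of all genes by 0.11 in mRNA and 0.14 in RPF, and members then passed as 2 higher and 41 lower in mRNA, 1 higher and 32 lower in RPF, and 7 higher and 6 lower in TE. The same scaling split all genes into 30.2% higher and 44.6% lower in mRNA and 22.1% higher and 34.0% lower in RPF. All changes in the following are relative to the TMM centre, and in these bulk samples fewer cells expressing a gene and less RNA per cell cannot be told apart.

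**Figure D1:**
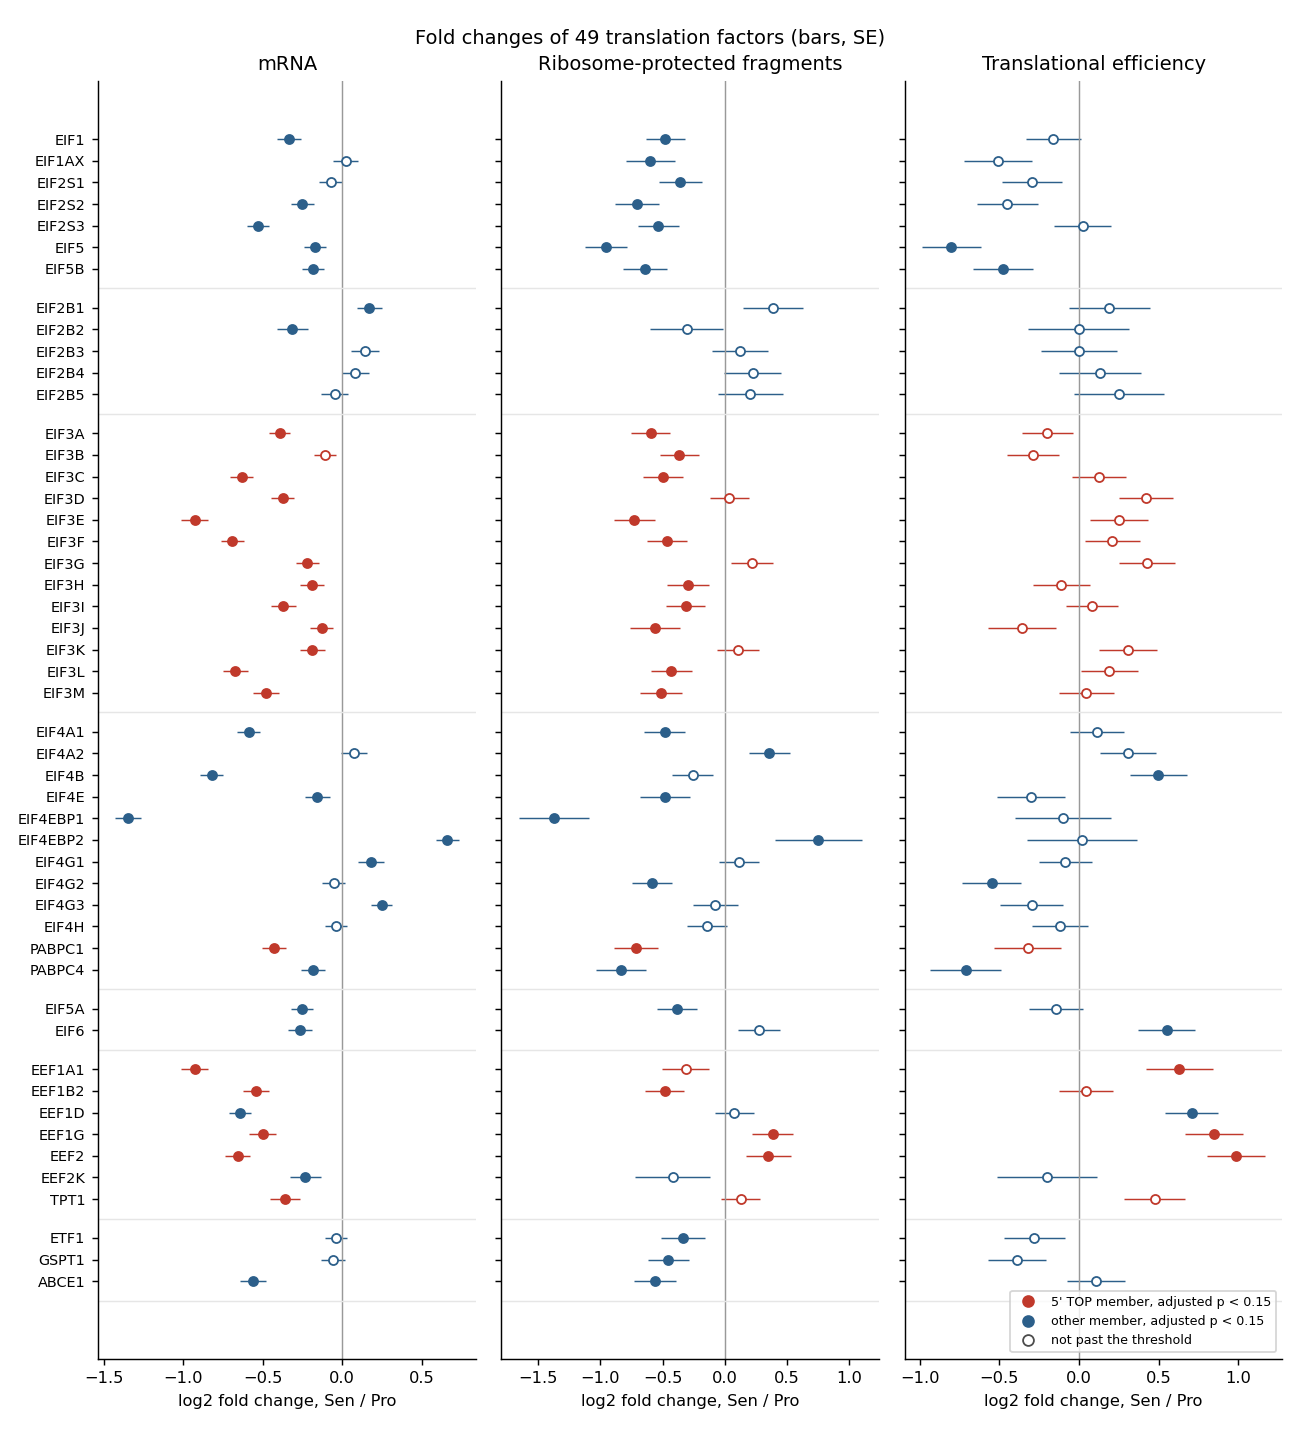
Log2 fold change (Sen over Pro, x axis) of each of the 49 members in mRNA, RPF and TE, with bars for the SE; rows follow the order of roles in the text, red marks 5′ TOP members, and filled points passed the adjusted p threshold. All mRNA points of the EIF3 and elongation blocks lie left of 0, and in the TE panel EEF1A1, EEF1D, EEF1G and EEF2 lie at 0.63 to 0.99.

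Factors of the ternary complex and of start selection had lower footprints in Sen in 7 of 7 cases, with RPF log2 changes between −0.95 and −0.36 and a median of −0.60. The groups were apart for 3 of the 7, and the count was 4 without Sen 1 or without Pro 2 and 2 with DESeq2. Their mRNAs moved less, with 5 of 7 lower, a median of −0.19, and EIF1AX (0.02) and EIF2S1 (−0.07) not past the threshold. EIF5, the GTPase-activating protein of EIF2, stood furthest apart. Its mRNA was at 313, 299 and 290.5 CPM in Pro and 266, 276 and 260.1 CPM in Sen. Footprints stood at 201, 252 and 225 CPM in Pro and 129.6, 137 and 102 CPM in Sen. The groups did not overlap in either layer, and the gap was wider in footprints.

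EIF5 changed by −0.17 ± 0.07 in mRNA (log2, SE, edgeR quasi-likelihood test, adjusted p = 0.0356), by −0.95 ± 0.17 in RPF (adjusted p = 6.92e-06) and by −0.80 ± 0.18 in TE (adjusted p = 0.00621). Its TE was −0.58, −0.24 and −0.36 in the Pro lysates and −1.03, −0.93 and −1.34 in the Sen lysates. The RPF call held under all 12 alternatives run, whereas the TE call was lost with DESeq2, without Pro 2 and without Sen 3. It was also lost in the partial variance model, in which 0 of 7512 genes passed. The EIF5 mRNA has upstream reading frames in its 5′ UTR, and 15.4% of its 5′ UTR and coding footprints lay in the 5′ UTR in Pro 2 (95% Wilson interval 11.1% to 20.9%, 208 footprints) and 16.6% in Pro 3 (13.5% to 20.2%, 470 footprints). The shares in Sen 1 (11.1%, 7.64% to 15.9%) and Sen 3 (10.0%, 4.66% to 20.2%) had intervals that overlapped those of Pro. Over all members the median share was between 0 and 0.635% in any library, but EIF5 was not the only member with a high share. EEF2K, on few footprints, had 9.4% in Pro 2, 8.1% in Pro 3, 11.9% in Sen 1 and 18.2% in Sen 3. The intervals cover counting error only.

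EIF5B, the GTPase that joins the large subunit, was at 150.5, 192 and 189 CPM of RPF in Pro and 108, 85.5 and 149 CPM in Sen, without overlap between the groups. Its mRNA was at 124, 124 and 119 CPM in Pro and 109, 105 and 108 CPM in Sen. Its TE was 0.35, 0.63 and 0.67 in Pro and −0.02, −0.16 and 0.47 in Sen, with overlap. This TE difference of −0.48 (log2, SE 0.19, edgeR adjusted p = 0.149) was a call at the edge of the threshold that was lost under 10 of 15 alternatives. The 3 EIF2 subunits were lower in RPF, at −0.36 for EIF2S1, −0.71 for EIF2S2 and −0.53 for EIF2S3, and EIF1, which guards start codon fidelity, at −0.48. In none of the 3 EIF2 subunits did the RPF groups separate.

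Of EIF2B, the complex that recycles EIF2, none of the 5 subunits passed in RPF or TE, with RPF log2 changes between −0.31 (EIF2B2) and 0.39 (EIF2B1, adjusted p = 0.197 by edgeR). In mRNA EIF2B1 was higher, at 0.17, and EIF2B2 lower, at −0.31. EIF2B1 mRNA was at 60.4, 52.4 and 53.3 CPM in Pro and 61.2, 65.9 and 58.8 CPM in Sen, so the groups overlapped, and this call was lost with library totals, without Pro 2, Pro 3 or Sen 2, and with coding reads alone. EIF2B2 had no footprint in Pro 1, which allows up to 50.2 CPM there. The difference between the change of EIF2 and that of EIF2B was not tested.

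EIF3, the scaffold that binds the small subunit and the cap complex, fell in 12 of 13 subunits at the mRNA level, with a median of −0.38 and EIF3B (−0.11, adjusted p = 0.164 by edgeR) as the remaining subunit. EIF3E fell most. Its mRNA was at 282, 267 and 246 CPM in Pro and 135, 160.3 and 121 CPM in Sen, a change of −0.93 ± 0.09 (adjusted p = 5.52e-09). Its RPF were at 201, 342 and 407 CPM in Pro and 203, 222 and 239.98 CPM in Sen, a change of −0.73 ± 0.17 (adjusted p = 0.000332). The mRNA groups did not overlap, while in RPF the shallow library Pro 1 lay below all Sen values.

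In footprints 10 of the 13 subunits were lower, and EIF3D (0.04), EIF3G (0.22) and EIF3K (0.11) did not pass. The RPF groups were apart for 2 of the 13, EIF3A and EIF3B, and the count of 10 became 3 without Sen 1 or without Pro 3, 6 without Pro 2 and 2 with DESeq2. No EIF3 subunit passed in TE, where values ran from −0.36 (EIF3J) to 0.43 (EIF3G) around a median of 0.13. Per kilobase of coding length, footprint densities of the 13 subunits lay between 105 and 333 CPM per kb in Pro (median 195) and between 77.7 and 293 CPM per kb in Sen (median 170). EIF3J, the loosely attached subunit, had the lowest density in both states and EIF3I the highest. The ratio of the highest to the lowest density was 3.18 in Pro and 3.77 in Sen. EIF2 subunits lay in the same range, at 144 to 263 CPM per kb in Pro and 113 to 197 in Sen. EIF2B subunits lay at 15.1 to 48.2 CPM per kb in Pro and 17.4 to 73.8 in Sen, and the highest Sen value came from the shallow library Sen 2 (EIF2B3 at 126 CPM per kb against 47.4 to 47.8 in the other Sen libraries). EIF3C has a near-identical copy, EIF3CL, that can take a share of its reads, so the EIF3C level is uncertain. Reads assigned to a pseudogene of EIF3I came to 14.3% of the EIF3I footprints over UTRs and coding sequence in Pro and 20.2% in Sen.

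**Figure D2:**
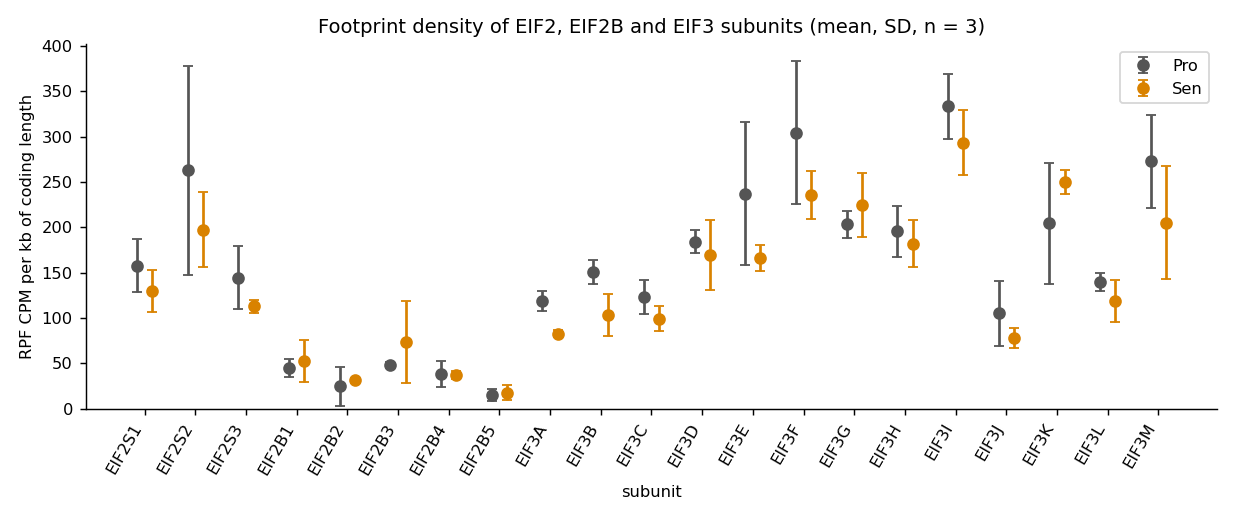
Footprint density (RPF CPM per kilobase of coding length, y axis) of EIF2, EIF2B and EIF3 subunits in Pro and Sen, as mean and SD of 3 libraries. EIF3 subunits have means of 77.7 to 333 CPM per kb and EIF2 subunits lie within that range, at 113 to 263 CPM per kb. All EIF2B subunits have means under 74 CPM per kb.

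Members of the cap and poly(A) complex moved in both directions, with 6 of 12 mRNAs lower, 3 higher, 6 RPF lower and 2 higher. Without Sen 1 the RPF count was 3 lower and 0 higher, as with DESeq2, and without Pro 2 or Pro 3 it was 6 lower and 0 higher. The largest opposite changes were those of the EIF4E-binding proteins. EIF4EBP1, the repressor that mTOR phosphorylates, was at 134, 144 and 120.0 CPM of mRNA in Pro and 54.1, 53.4 and 48.9 CPM in Sen. EIF4EBP2, its paralog, was at 130.4, 127 and 117 CPM in Pro and 201, 188 and 202 CPM in Sen. The mRNA of neither paralog overlapped between the states.

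EIF4EBP1 mRNA changed by −1.35 ± 0.08 (edgeR adjusted p = 3.64e-12) and EIF4EBP2 mRNA by 0.66 ± 0.07 (adjusted p = 4.31e-08), and both calls held under all 14 alternatives run. EIF4EBP1 RPF were at 117, 45.8 and 67.9 CPM in Pro and 28.5, 17.1 and 13.2 CPM in Sen (−1.37 ± 0.28, adjusted p = 7.50e-05). EIF4EBP2 RPF were at 33.4, 11.4 and 15.5 CPM in Pro and 27.9, 34.2 and 17.0 CPM in Sen (0.75 ± 0.35, adjusted p = 0.0775). The EIF4EBP1 groups were apart, although Pro 1 rests on 7 counts and Sen 2 on 1, whereas those of EIF4EBP2 overlapped and its call was lost under 6 of 12 alternatives. TE of both stayed near 0 change, at −0.10 ± 0.30 and 0.02 ± 0.34.

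EIF4E itself, the cap-binding protein, changed little in mRNA, from 77.0, 75.9 and 76.8 CPM in Pro to 67.3, 74.7 and 63.7 CPM in Sen (−0.16 ± 0.08, edgeR adjusted p = 0.0781). This call was lost without Sen 1, without Sen 3 and with coding reads alone. Its RPF were at 184, 104 and 101 CPM in Pro and 83.6, 51.3 and 62.4 CPM in Sen (−0.48 ± 0.20, adjusted p = 0.0443). The groups were apart in both layers, and the RPF call was lost with DESeq2 and without Sen 3.

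The scaffold proteins differed among themselves. EIF4G1 mRNA was at 440.4, 479 and 502 CPM in Pro and 553, 473 and 587 CPM in Sen, with overlap between the groups (0.18 ± 0.08, edgeR adjusted p = 0.0552). That call was lost with library totals and without Pro 1, Sen 1 or Sen 3. EIF4G3 mRNA was at 140.1, 148 and 151 CPM in Pro and 171, 175 and 175 CPM in Sen, without overlap (0.25 ± 0.07, adjusted p = 0.00314). In RPF neither passed, at 0.11 and −0.08.

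EIF4G2, a relative of EIF4G1 that lacks the EIF4E-binding site, showed the reverse arrangement, with a fall in footprints alone. Its mRNA was at 1719, 1598 and 1564 CPM in Pro and 1543, 1608 and 1549 CPM in Sen, which overlap. RPF levels were 869, 687 and 605 CPM in Pro and 442, 462 and 455 CPM in Sen, which do not. The RPF change was −0.59 ± 0.16 (edgeR adjusted p = 0.00279) and held under all 13 alternatives run. TE was −0.97, −1.22 and −1.37 in Pro and −1.80, −1.77 and −1.76 in Sen, a change of −0.55 ± 0.19 (adjusted p = 0.0853) that was lost under 7 of 16 alternatives.

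Of the helicase subunits and their cofactors, EIF4A1 and EIF4B fell in mRNA, EIF4A2 rose in RPF, and EIF4H passed in no layer. EIF4A1 was lower by similar amounts in mRNA (−0.59) and RPF (−0.48). EIF4A2 RPF were at 134, 195 and 171 CPM in Pro and 242, 274 and 197 CPM in Sen, without overlap (0.36 ± 0.17, edgeR adjusted p = 0.0758), a call lost under 7 of 12 alternatives. EIF4B, which stimulates the helicase, was at 485, 479 and 435 CPM of mRNA in Pro and 282, 256 and 253 CPM in Sen (−0.82 ± 0.07, adjusted p = 2.56e-09). Its RPF, at 167, 250.3 and 225 CPM in Pro and 202, 119.8 and 193 CPM in Sen, overlapped (−0.26 ± 0.16, adjusted p = 0.205). TE of EIF4B rose by 0.50 ± 0.18 (adjusted p = 0.109) with overlapping groups, and the call was lost under 7 of 15 alternatives.

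The listed poly(A)-binding proteins, PABPC1 and PABPC4, had lower footprints by the fit. PABPC1 mRNA was at 833, 866 and 744 CPM in Pro and 623, 590.5 and 602 CPM in Sen (−0.43 ± 0.07, edgeR adjusted p = 2.95e-05). PABPC1 RPF were at 167, 177 and 185 CPM in Pro and 94.6, 154 and 132 CPM in Sen (−0.72 ± 0.18, adjusted p = 0.000825). The groups were apart in both layers, and TE (−0.32 ± 0.21) did not pass. The PABPC1 RPF call was lost with DESeq2 and without Sen 1. Reads of a PABPC1 pseudogene came to 10.0% of the PABPC1 footprints over UTRs and coding sequence in Pro and 10.6% in Sen.

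PABPC4 RPF were at 100.3, 134 and 126 CPM in Pro and 61.6, 188 and 77.5 CPM in Sen. The Sen 2 value, which rests on 11 counts, was the highest of the 6, while the deeper Sen libraries lay below all Pro values. The fit gave −0.84 ± 0.20 in RPF (edgeR adjusted p = 0.000678) and −0.71 ± 0.22 in TE (adjusted p = 0.0637), and the group means of 120.4 ± 17.9 and 109 ± 69.0 CPM (SD, n = 3) differed by less than the spread in Sen. Its TE of −1.41, −1.12 and −1.04 in Pro and −2.10, −0.27 and −1.61 in Sen overlapped through the same lysate. The RPF call was lost with DESeq2, without Sen 1 and with the replicate number as a block. The TE call was lost under 6 of 15 alternatives. The mRNA of PABPC4 was at 288, 295 and 260.3 CPM in Pro and 265, 238 and 240.1 CPM in Sen, which overlap.

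EIF5A, which helps the ribosome past difficult peptide bonds, was lower in mRNA (−0.25) and RPF (−0.38). EIF6, which keeps the large subunit from joining too early, was lower in mRNA alone, from 204, 206 and 208 CPM in Pro to 183, 181 and 152 CPM in Sen (−0.26 ± 0.08, edgeR adjusted p = 0.00446). EIF6 RPF, at 401, 312 and 276 CPM in Pro and 333, 222 and 440.3 CPM in Sen, overlapped. Its TE change of 0.55 ± 0.18 (edgeR adjusted p = 0.0738) rested on overlapping groups. The partial variance model, whose state term is the RPF change at a given mRNA level, gave −0.76.

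The elongation genes gave the widest separation between layers. All 7 mRNAs were lower in Sen, at −0.93 to −0.23 with a median of −0.54, whereas in RPF EEF1B2 was lower, EEF1G and EEF2 were higher and 4 did not pass, with a median of 0.08. TE was higher for 4 of 7 with a median of 0.63, and no elongation gene was lower in TE. With library totals the RPF median of these genes turned to −0.07, and 3 RPF were then lower and 1 higher. The 4 TE calls became 1 without Pro 2, without Sen 3 or with DESeq2, and the 2 higher RPF calls became 0 without Pro 2, Pro 3, Sen 1 or Sen 3.

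EEF2, the translocase, was at 2704, 2803 and 2666 CPM of mRNA in Pro and 1803, 1531 and 1851 CPM in Sen. EEF2 footprints were at 3327, 3019.7 and 3353 CPM in Pro and 3759, 3644 and 4837 CPM in Sen. Its TE was 0.30, 0.11 and 0.33 in Pro and 1.06, 1.25 and 1.39 in Sen. In all 3 layers the states did not overlap, with mRNA lower and footprints higher in Sen, but as shares of footprints without TMM factors Pro 1 (0.366%) lay above Sen 1 (0.347%).

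The mRNA change of EEF2 was −0.66 ± 0.08 (edgeR adjusted p = 2.43e-07), the RPF change 0.35 ± 0.18 (adjusted p = 0.109) and the TE change 0.99 ± 0.18 (adjusted p = 0.000215). The TE call held in 15 of 16 alternatives, with values between 0.87 and 1.09, and was lost in the partial variance model (0.88, adjusted p = 0.789). The RPF call was weak and was lost under 9 of 13 alternatives, over which its value ran from 0.19 to 0.42.

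EEF1A1, the tRNA carrier and the most abundant member, was at 14739.7, 15472 and 13701 CPM of mRNA in Pro and 7744, 8321 and 7007 CPM in Sen (−0.93 ± 0.08, edgeR adjusted p = 2.14e-09). Footprints of EEF1A1 were at 6771, 9379.6 and 9927 CPM in Pro and 6465, 6792 and 7838 CPM in Sen (−0.32 ± 0.19, adjusted p = 0.183). The mRNA groups were far apart, while in RPF the shallow library Pro 1 lay among the Sen values. EEF1A1 RPF passed as lower under 5 of 13 alternatives, over which its value ran from −0.51 to −0.20. TE was −1.12, −0.72 and −0.46 in Pro and −0.26, −0.29 and 0.16 in Sen, without overlap (0.63 ± 0.21, adjusted p = 0.0802). That call was lost without Pro 1, Pro 2, Sen 1 or Sen 3, with DESeq2 and with a filter of 1 read, and the partial variance model gave −1.11. How reads shared with processed pseudogenes of EEF1A1 were placed is not given in the sources used here.

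The subunits of the EEF1B complex, which recharges EEF1A with GTP, split. EEF1G mRNA was at 2048, 1862 and 1654 CPM in Pro and 1379.7, 1373 and 1186 CPM in Sen (−0.50 ± 0.08, edgeR adjusted p = 2.47e-05), and its RPF at 886, 774 and 791 CPM in Pro and 999, 907 and 1158 CPM in Sen (0.38 ± 0.16, adjusted p = 0.0525). EEF1D mRNA was at 383, 410.2 and 376 CPM in Pro and 259, 247 and 244 CPM in Sen (−0.64 ± 0.07, adjusted p = 5.21e-08), and its RPF at 267, 350.5 and 326 CPM in Pro and 325, 274 and 399 CPM in Sen (0.08 ± 0.16, adjusted p = 0.722). For EEF1G both layers were apart in opposite directions, although its RPF call was lost under 7 of 13 alternatives. As a share of footprints without TMM factors, EEF1G in Pro 1 (52.5 of 54421) lay above Sen 1 (1542 of 1672807). For EEF1D the RPF groups overlapped.

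TE of EEF1G was −1.20, −1.27 and −1.06 in Pro and −0.46, −0.59 and −0.03 in Sen (0.85 ± 0.18, edgeR adjusted p = 0.00276). TE of EEF1D was −0.47, −0.22 and −0.20 in Pro and 0.33, 0.19 and 0.71 in Sen (0.71 ± 0.17, adjusted p = 0.00767). Neither overlapped between the states, and both calls were lost with DESeq2, without Pro 2, without Sen 3 and in the partial variance model. EEF1B2 behaved otherwise: its mRNA (−0.54) and RPF (−0.48) were lower by similar amounts and its TE change was 0.04 ± 0.17.

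TPT1, a TOP mRNA that encodes an abundant protein known to bind EEF1A, was at 2757, 2517 and 2191 CPM of mRNA in Pro and 1983, 2165 and 1672 CPM in Sen (−0.36 ± 0.09, edgeR adjusted p = 0.00203). Its RPF were at 518, 576 and 562 CPM in Pro and 659, 582 and 574 CPM in Sen (0.13 ± 0.16, adjusted p = 0.534). TE was −2.39, −2.12 and −1.96 in Pro and −1.59, −1.88 and −1.54 in Sen, apart but not past the threshold (0.48 ± 0.19, adjusted p = 0.158). EEF2K, the kinase that inhibits EEF2, was at 31.2, 36.9 and 37.2 CPM of mRNA in Pro and 31.6, 26.6 and 32.3 CPM in Sen (−0.23 ± 0.10, adjusted p = 0.0409), with overlapping groups. EEF2K RPF were at 33.4, 41.5 and 32.8 CPM in Pro and 24.0, 17.1 and 34.0 CPM in Sen, which also overlapped and did not pass (−0.42 ± 0.30, adjusted p = 0.258).

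Compared per coding length, EEF1A1 had 6272 ± 1217 footprint CPM per kb in Pro and 5074 ± 517 in Sen (SD, n = 3), EEF2 1256 ± 72.1 and 1585 ± 256, TPT1 1070.5 ± 58.9 and 1172 ± 90.3, EEF1B2 674 ± 21.8 and 463 ± 59.1, and EEF1G 623 ± 46.2 and 779 ± 97.0. EEF1B2 stood above EEF1G in each Pro library, the closest being Pro 1 with 693 against 676 CPM per kb, and below it in each Sen library. The order of these means is a description and was not tested.

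**Figure D3:**
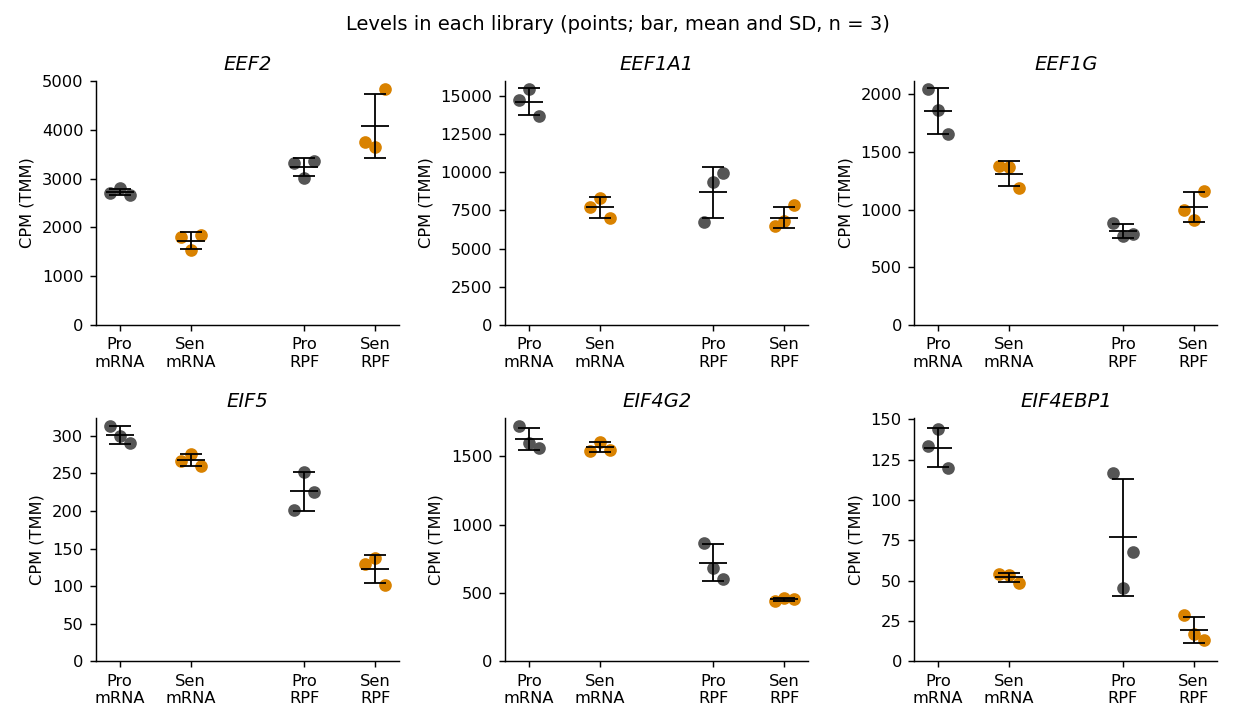
mRNA and RPF levels (CPM with TMM factors, y axis from 0) of 6 members in each of 3 Pro and 3 Sen libraries, with mean and SD. EEF2 and EEF1G are lower in mRNA and higher in RPF in Sen, EIF5 and EIF4G2 are lower mainly in RPF, and EIF4EBP1 is lower in both.

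Of the termination and recycling factors, ABCE1, the recycling ATPase, was lower in mRNA (−0.56) and RPF (−0.56). ETF1, which recognises stop codons, and GSPT1, its partner GTPase, did not pass in mRNA (−0.04 and −0.06) and were lower in RPF (−0.34 and −0.45). The ETF1 call was lost under 7 of 12 alternatives, with −0.05 as the value nearest 0, and with DESeq2 none of the 3 passed in RPF. The RPF groups overlapped for all 3, and none passed in TE.

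In 20 of 49 members mRNA and RPF passed in the same direction and TE did not, a share near that of all 7512 genes (41.8%). When the RPF change is plotted against the mRNA change, above the line of equal change with TE past the threshold lay EEF1A1, EEF1D, EEF1G, EEF2, EIF4B and EIF6, all with lower mRNA. Below it lay EIF5, EIF5B, EIF4G2 and PABPC4.

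**Figure D4:**
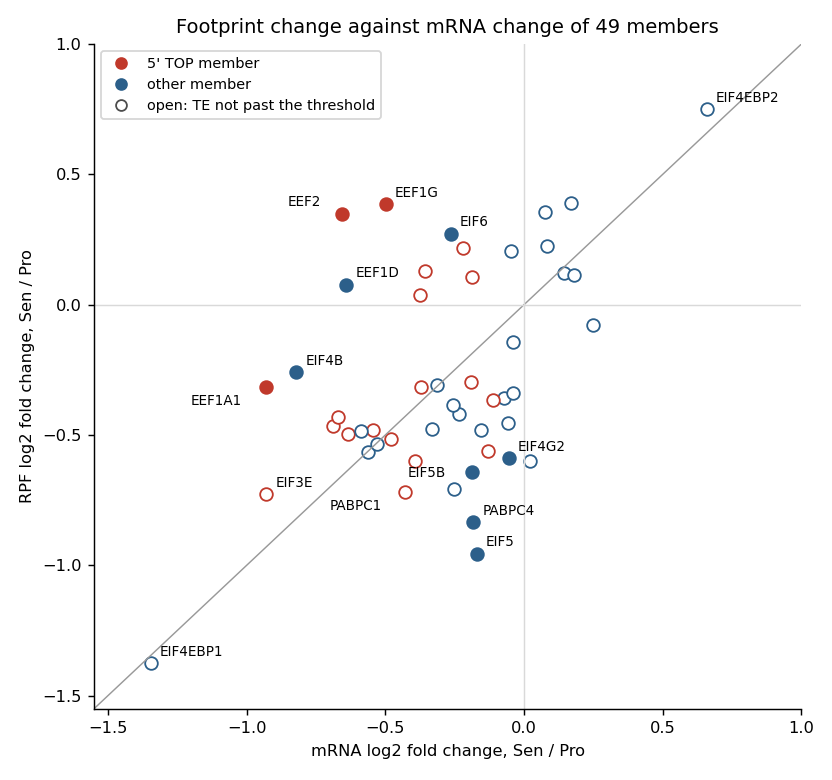
RPF log2 fold change (y axis) against mRNA log2 fold change (x axis), Sen over Pro, for the 49 members; the line marks equal change and filled points passed in TE. EEF2 (−0.66 in mRNA, 0.35 in RPF) and EEF1G (−0.50, 0.38) lie in the upper left quadrant, and EIF5 (−0.17, −0.95) lies furthest below the line.

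The 5′ TOP members lay below the others in mRNA and above them in TE, with the same median in RPF. In mRNA 18 of 19 TOP members were lower and none higher (median −0.43), and of the 30 others 16 were lower and 4 higher (median −0.16). In RPF 12 of 19 TOP members were lower and 2 higher, and 16 of 30 others lower and 2 higher, with medians of −0.37 for both classes. In TE 3 TOP members (EEF1A1, EEF1G and EEF2) were higher and none lower (median 0.19), and 3 others were higher and 4 lower (median −0.11). The classes were set by name, so these counts carry no test over the lists.

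In single libraries, relative to the Pro mean of each gene, the TOP median minus the median of the others was 0.01, 0.02 and −0.07 in the Pro mRNA libraries and −0.30, −0.27 and −0.41 in the Sen mRNA libraries. For TE it was 0.02, −0.07 and 0.09 in Pro and 0.20, 0.53 and 0.50 in Sen. For RPF it was 0.12, −0.11 and 0.00 in Pro and −0.08, 0.45 and −0.08 in Sen. The states were apart in mRNA and TE, and in RPF the shallow library Sen 2 was the exception to values near those of Pro. From the fitted changes the difference between the classes was −0.27 in mRNA, 0.00 in RPF and 0.30 in TE, where the SD over libraries was 0.06, 0.23 and 0.14. For the state term of the partial variance model, an RPF change at a given mRNA level and not a TE change, the class difference was 0.053. With the EIF3 subunits left out of the TOP class the differences were −0.36 in mRNA, 0.28 in RPF and 0.66 in TE.

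**Figure D5:**
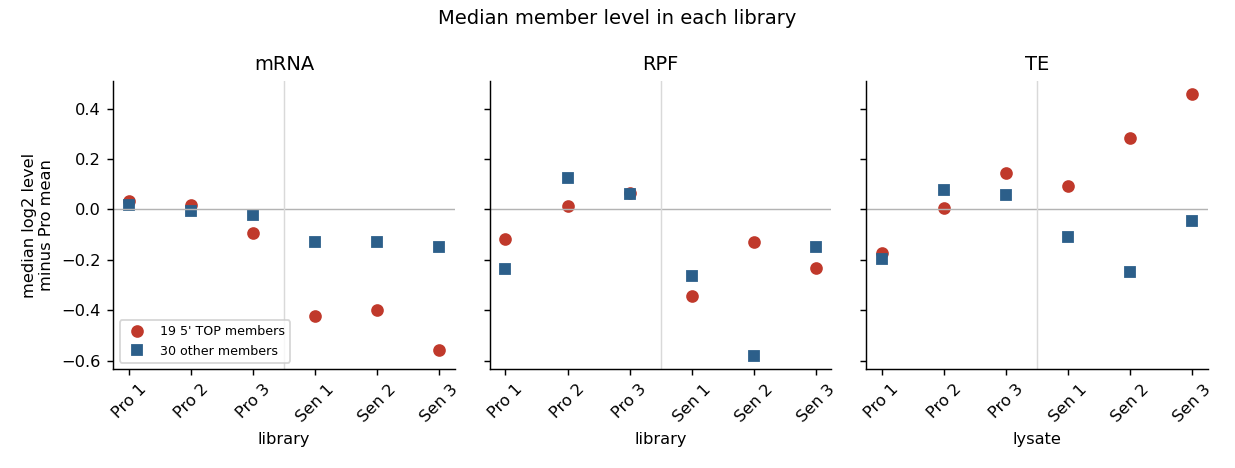
Median log2 level minus the Pro mean of each gene (y axis) over the 19 5′ TOP members and the 30 other members, in each of 6 libraries or lysates. TOP medians lie at −0.40 to −0.56 in the Sen mRNA libraries while those of the other members lie at −0.13 to −0.15, and in TE the TOP medians of the Sen lysates lie at 0.09 to 0.46.

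The TOP class was not uniform. Its 13 EIF3 subunits had a TE median of 0.13 and no call, and the 6 remaining members had a TE median of 0.55 with 3 calls, and an RPF median of −0.09 against −0.43 for EIF3. Within those 6, EEF1B2 (TE 0.04) and PABPC1 (TE −0.32) lay apart from EEF1A1, EEF1G, EEF2 and TPT1 (0.48 to 0.99). Sorted by the letters at the start in place of the list, the 11 members with a pyrimidine run had medians of −0.53 in mRNA, −0.26 in RPF and 0.31 in TE. All 11 TE values were above 0 (0.02 to 0.99) and 3 passed. The TE sign was kept in only 9 of 15 alternatives for EIF2S3, 11 of 16 for EEF1B2 and 12 of 16 for EIF3M. The 28 members with a listed start and no run had −0.12, −0.36 and −0.13. Over all genes with the run that are neither members nor ribosomal proteins the medians were −0.06 in mRNA (702 genes), −0.08 in RPF (438 genes) and 0.02 in TE (436 genes).

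Ribosomal proteins, the other large group of TOP mRNAs, give a scale for these values. Of 79, 78 were lower in mRNA (median −0.54) and none higher. In RPF 42 were lower and 4 higher (median −0.34), and in TE 24 were higher and 1 lower (median 0.25). Over all genes tested, 37% were lower in mRNA, 26.7% lower in RPF and 4.97% higher in TE. Here the median is that of the ribosomal proteins. EEF2 (0.99), EEF1G (0.85) and EEF1A1 (0.63) had TE changes above the TE median of the ribosomal proteins, and the EIF3 median (0.13) was below it. No test compared the groups.

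As shares of all mRNA reads, the 49 members took 3.36% to 3.63% of each Pro library and 2.11% to 2.30% of each Sen library. EEF1A1 alone took 1.43% to 1.60% in Pro and 0.68% to 0.80% in Sen, and the other 48 fell from between 1.93% and 2.10% in Pro to between 1.43% and 1.497% in Sen. Of footprints, members took 2.44% to 2.66% in Pro and 1.92% to 2.18% in Sen. EEF2 took 0.31% to 0.37% of footprints in Pro and 0.35% to 0.44% in Sen.

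Of 47 other translation genes, among them paralogs, kinases of EIF2, phosphatase subunits and mitochondrial factors, 45 were tested in mRNA with 12 higher and 18 lower (median −0.04), and 37 in RPF with 7 higher and 13 lower (median −0.24). Of all genes tested, 36.6% were higher and 37% lower in mRNA, and 27.7% higher and 26.7% lower in RPF. EEF1A2, the muscle and neuron paralog of EEF1A1, rose. Its mRNA was at 5.49, 5.30 and 6.79 CPM in Pro and 30.6, 27.7 and 35.2 CPM in Sen (2.40 ± 0.13, edgeR adjusted p = 7.22e-13). Its RPF were at 50.2, 40.1 and 46.6 CPM in Pro and 102, 137 and 161 CPM in Sen (1.47 ± 0.21, adjusted p = 9.17e-08). The groups were apart in both layers and moved opposite to EEF1A1 mRNA, but reads of the far more abundant EEF1A1 that match both paralogs could enter EEF1A2, and the EEF1A2 values are uncertain for that reason.

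The next highest mRNA changes past the threshold were those of RPS6KB2, a ribosomal protein S6 kinase (0.67), and EIF2AK4, the amino acid sensing kinase of EIF2 (0.64 in mRNA and 0.62 in RPF). The lowest were those of the mitochondrial factors MTIF2 (−0.79), MRRF (−0.71) and MTRF1 (−0.50). In RPF, TUFM, the mitochondrial elongation factor, rose by 0.74 ± 0.17 (edgeR adjusted p = 0.000314) and PPP1R15A, a phosphatase subunit that acts on EIF2, by 0.73 ± 0.36 (adjusted p = 0.0967). EEF1E1, a scaffold of the tRNA synthetase complex, was lower at −1.10 ± 0.33, EIF2AK2, the double-stranded RNA sensing kinase of EIF2, at −1.06 ± 0.21, and MTIF2 at −0.95 ± 0.40. Some of these RPF changes rest on few footprints. EEF1E1 had 0.5, 25.5 and 54 in Pro and 21.5, 0.5 and 8.5 in Sen. MTIF2 had 4, 14 and 33 in Pro and 19, 0 and 4 in Sen, and PPP1R15A 0, 14 and 27 in Pro and 31, 5 and 20 in Sen. The 2 EIF2 kinases named here thus changed in opposite directions in both mRNA and RPF, with EIF2AK2 mRNA at −0.40.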

How the data were processed

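RNA-seq and Ribo-seq libraries of 3 Pro and 3 Sen IMR90 lysates were grouped by their titles. The authors deposited expected counts per gene symbol and transcript region, reads assigned to the 5′ UTR, coding sequence and 3′ UTR without scaling to depth; part of the values were fractions of a read, so values were summed over regions and rounded, whereas whole counts had been assumed. The submitters' processing notes name cutadapt 1.18, Bowtie 1.0.1, SAMtools 1.8 and DESeq2 1.22.2; genome build, annotation and strand rule are not given in the sources used here. A tag in some deposited tables of proliferating cells resembles DMSO, a solvent absent from the labels.

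The test was edgeR's quasi-likelihood F test (edgeR 4.0.16, R 4.3.3), run after filterByExpr on 16451 symbols with a coding read, with TMM factors within each library type. mRNA and RPF fits used 6 libraries each and state alone. TE was the interaction of library type and state over 12 libraries with the lysate as a block, since 1 lysate gave both libraries. Per-lysate TE added 0.5 to each count. Tests were two-sided and p-values were Benjamini-Hochberg adjusted over all genes tested; the threshold of 0.15 is the false discovery rate of 15% of the study's methods. Fold changes are Sen over Pro. The SE beside a log2 change was derived as its absolute value divided by the square root of the F statistic. The scripts were tested on simulated counts. Coding lengths were those of the canonical transcripts in GENCODE v44 (lifted to GRCh37), and starts came from RefSeq, GRCh38.p14. Alternatives were DESeq2 1.42.0, other scalings, filters, thresholds and blocks, RNA-seq coding reads alone, libraries left out, and a partial variance model (log2 RPF on log2 mRNA and state). The value given for that model is its state term, an RPF change at a given mRNA level, which is another measure than the change of TE.

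Deviations of the RNA-seq and Ribo-seq libraries of a lysate from their group means correlated at −0.07 to 0.10 over genes. The members, gene lists and named-gene rule were chosen with earlier results of these data known. Values in every library are given for EEF1A1, EEF2, PABPC1, TPT1, EIF4E, EIF4EBP1, EEF2K and the 4 highest and 4 lowest changes past the threshold in each layer, with the other members by change, range or count. Of the other translation genes, the 3 highest and 3 lowest in mRNA and RPF are named by their change. EIF6 and EEF1A2 are given by library although chosen after their values were seen.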

Additional observations from a re-analysis of the deposited data

How the results depend on the processing

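The count of 38 mRNA calls stayed within 1.5 times under every alternative run (34 to 43). The 32 RPF calls became 8 with DESeq2, where 15.3% of all genes passed. They became 17 of the 24 members that kept 10 counts or more in each library, where 72.95% of 828 genes passed. With single replicates left out they were 13 to 35, where 33.1% to 56.5% of all genes passed. The 10 TE calls became 1 with DESeq2, 5 when genes needed no more than 1 read and 4 at an adjusted p under 0.05. With single lysates left out they were 1 to 12. The shares of all genes were 0.36% with DESeq2, 3.15% with 1 read and 1.57% to 14.1% with single lysates left out. In the partial variance model 0 members and 0 of 7512 genes passed, while 3 members and 541 genes had an unadjusted p under 0.05. Proliferating and senescent libraries of the same number deviated together at −0.20 to 0.23 in mRNA and 0.02 to 0.06 in RPF. RNA-seq and Ribo-seq libraries of the same lysate gave −0.07 to 0.10, so this measure cannot decide whether the number pairs samples. With the number as a replicate block the RPF calls were 12, where 31.8% of all genes passed, and the mRNA calls 39, where 73.75% passed. Without the lysate block the TE calls were 16, where 18.2% of all genes passed. Without the EIF3 subunits the median of TOP members minus that of the others moved to −0.36 in mRNA, 0.28 in RPF and 0.66 in TE. The state term of the partial variance model is an RPF change at a given mRNA level, which is another measure than TE. Its class difference was 0.053, and its values for EIF6 (−0.76) and EEF1A1 (−1.11) had the sign opposite to their TE changes. Of the called members, 31 of 38 in mRNA, 5 of 32 in RPF (EIF5, EIF3A, EIF3E, EIF4EBP1 and EIF4G2) and 0 of 10 in TE kept their call under every alternative run. The TE count was fixed by the partial variance model, in which no gene of the series passed, so it describes nothing particular to the members. EEF2 lost its TE call in that model alone. The cause of these differences was not tested beyond the fewer samples or genes that some alternatives use. Depth limits the RPF and TE layers: 54421 and 54708 coding reads in Pro 1 and Sen 2 leave members with few counts there.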
